A study of Homo sapiens with 4 samples.

Results

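Folate one-carbon metabolism moves single carbon units, carried on tetrahydrofolate, from serine and glycine to purines, thymidylate and methionine. A mitochondrial branch takes the carbon off serine and releases it as formate, and a cytosolic branch joins the formate to folate again and passes it to biosynthesis. Enzyme pairs encoded by separate genes carry out matching steps in both compartments. The mitochondrial enzymes SHMT2 and MTHFD2 are known for high expression in many tumours, and in liver the cytosolic enzymes SHMT1 and ALDH1L1 are typical of the differentiated hepatocyte.

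The enzymes described are 9 genes, each taken as the row of the table that carries its symbol, of 33478 rows in all. The mitochondrial members are SHMT2, MTHFD2, MTHFD2L, MTHFD1L and ALDH1L2, and the cytosolic ones are SHMT1, MTHFD1, ALDH1L1 and MTR. The libraries are 2 of MHCC-97H liver cancer cells, a human cell line, with an shRNA against UCK2 (SH-UCK2-B in the titles, UCK2 knockdown as genotype) and 2 of the same line with a control shRNA (SH-NC). UCK2 is the kinase that phosphorylates uridine and cytidine for nucleotide salvage. Only SH-UCK2-B was read, so what it does through UCK2 and what it does elsewhere cannot be told apart. Values are TPM as deposited, a measure of transcript abundance that takes gene length into account, unless they are said to be scaled.

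The libraries differ in ways that touch every value below. The columns sum to between 643063 and 850534 TPM over the rows used here. The share outside these rows was worked out on the assumption that each library had the full nominal TPM total. It was 32.3% and 35.7% in UCK2 shRNA replicates 1 and 2, against 15.0% and 14.9% in the controls. Values after median-ratio scaling of the genes tested are therefore given beside the deposited ones. UCK2 itself had 120.5 and 67.8 TPM in UCK2 shRNA replicates 1 and 2, and 135.7 and 93.6 TPM in control replicates 1 and 2, so the groups overlapped and the target did not separate the labels (log2 difference -0.31 ± 0.30 SE, limma adjusted p = 0.640; scaled -0.08). Each direction below rests on the library titles. The description of UCK2 shRNA replicate 2 names UCK3, and that of control replicate 2 names another line number. All 9 hepatocyte and hepatoma markers read averaged over 1 TPM. Of 12 retina markers, read because the extraction text speaks of retinas, 1 did so, and their summed level was 3.09 and 4.61 TPM in the UCK2 shRNA libraries and 3.49 and 3.82 TPM in the controls.

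The promoters of 3 members are shown, because the mitochondrial MTHFD1L and the cytosolic MTHFD1 and SHMT1 lay on opposite sides in one library described below. Each is the 250 bases before a RefSeq transcript start, 5′ to 3′ on the gene's strand, with build GRCh38.p14 coordinates: chr6:150866236-150866485 on the plus strand for MTHFD1L, chr14:64388103-64388352 on the plus strand for MTHFD1 and chr17:18363551-18363800 on the minus strand for SHMT1. The MTHFD1L and MTHFD1 stretches lie within the coordinates of their genes given below. Capitals mark the core of the C/EBP-ATF response element, TGATGNAA, bound by ATF4 and its partners, and the E-box CACGTG, bound by MYC and other factors.
MTHFD1L: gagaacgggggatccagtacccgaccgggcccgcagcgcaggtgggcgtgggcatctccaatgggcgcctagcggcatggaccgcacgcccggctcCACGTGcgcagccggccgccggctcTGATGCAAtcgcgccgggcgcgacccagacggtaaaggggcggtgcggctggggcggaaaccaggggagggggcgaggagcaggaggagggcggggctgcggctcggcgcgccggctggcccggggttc
MTHFD1: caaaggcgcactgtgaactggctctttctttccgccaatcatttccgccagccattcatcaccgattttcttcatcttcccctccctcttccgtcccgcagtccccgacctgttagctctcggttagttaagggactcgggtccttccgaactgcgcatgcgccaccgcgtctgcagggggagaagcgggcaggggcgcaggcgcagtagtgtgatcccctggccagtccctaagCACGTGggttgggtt
SHMT1: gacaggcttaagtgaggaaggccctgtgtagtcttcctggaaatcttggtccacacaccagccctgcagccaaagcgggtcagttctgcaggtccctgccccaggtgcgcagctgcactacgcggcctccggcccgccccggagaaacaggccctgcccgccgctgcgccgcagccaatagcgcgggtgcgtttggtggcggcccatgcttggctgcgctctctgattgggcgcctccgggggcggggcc

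Both motifs were searched on both strands in windows of 300 bases, and 7 of the 9 members had a window in the RefSeq table. TGATGNAA was found in 1 of the 7, MTHFD1L, as TGATGCAA with its first base 129 bases before the start used here. Counted from other MTHFD1L starts, that base lies 90 bases before the start, or at -24, which is after it. Among all genes with a window, 4.46% held it. CACGTG was found in 2 of the 7, MTHFD1L and MTHFD1, its first base 154 and 15 bases before the start, against 8.77% of all genes. SHMT1, MTHFD2, MTHFD2L, ALDH1L1 and MTR held neither in these windows, and a match is a description of letters, not of binding. The promoters shown were chosen after the values were seen. MTHFD2L, mitochondrial and not shown, lay further above its mean than MTHFD1L in UCK2 shRNA replicate 2 after scaling (log2 deviation 0.64 against 0.27).

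SHMT2 was by far the most abundant member, with a mean of 222.6 TPM, 3.66 times that of MTHFD1, the next. SHMT2 (ENSG00000182199, chromosome 12, 57229327 to 57234935 on hg38, plus strand) is the mitochondrial serine hydroxymethyltransferase that takes the carbon unit off serine. It had 198 and 234 TPM in UCK2 shRNA replicates 1 and 2, and 223 and 235 TPM in control replicates 1 and 2. The groups overlapped, with UCK2 shRNA replicate 1 the lowest. SHMT2 alone made up 59.9% and 66.7% of the summed TPM of the 9 members in the UCK2 shRNA libraries, and 60.6% and 62.3% in the controls, and 97.6% of protein-coding genes had a lower mean.

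The next levels, as listed, were cytosolic. MTHFD1 (chromosome 14, 64388031 to 64463457, plus strand) encodes the trifunctional cytosolic enzyme that joins formate to tetrahydrofolate and interconverts the forms used for purines and thymidylate. It had 60.9 and 47.8 TPM in the UCK2 shRNA libraries and 70.2 and 64.5 TPM in the controls. Both UCK2 shRNA libraries were below both controls, as they were for 44.4% of all genes tested as deposited, and MTHFD1 was the only member tested with this separation. No member tested was above both controls in both UCK2 shRNA libraries as deposited, where 5.46% of all genes were. SHMT1 (chromosome 17, 18327860 to 18363563, minus strand), the cytosolic serine hydroxymethyltransferase, had 42.6 and 28.2 TPM in the UCK2 shRNA libraries and 40.0 and 47.1 TPM in the controls. UCK2 shRNA replicate 2 was the lowest library for both genes, and the groups overlapped for SHMT1.

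MTHFD1L (chromosome 6, 150865549 to 151101887, plus strand), the mitochondrial formate-releasing synthetase, had 17.5 and 22.2 TPM in the UCK2 shRNA libraries and 19.2 and 20.3 TPM in the controls. The 2 controls lay between the UCK2 shRNA libraries. MTR (chromosome 1, 236795281 to 236903981, plus strand), methionine synthase, which uses methyl-tetrahydrofolate and vitamin B12, had 5.24 and 5.69 TPM in the UCK2 shRNA libraries and 7.66 and 3.85 TPM in the controls. Here the controls stood on either side of the UCK2 shRNA libraries.

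MTHFD2L (chromosome 4, 74114174 to 74303099, plus strand), a mitochondrial methylene-tetrahydrofolate dehydrogenase related to MTHFD2, had 4.96 and 8.37 TPM in the UCK2 shRNA libraries and 5.23 and 3.88 TPM in the controls. ALDH1L2 (chromosome 12, 105019784 to 105084577, minus strand), the mitochondrial formyl-tetrahydrofolate dehydrogenase, had 1.62 and 3.93 TPM in the UCK2 shRNA libraries and 2.56 and 2.18 TPM in the controls. Both were highest in UCK2 shRNA replicate 2. C12orf45 overlaps ALDH1L2 on the opposite strand at a mean of 54.8 TPM, and the sources used here do not say whether counting used strand, so the low level of ALDH1L2 is uncertain.

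The 2 members below the filter were MTHFD2 and ALDH1L1. MTHFD2 (ENSG00000065911, chromosome 2, 74198562 to 74217565, plus strand) encodes the main mitochondrial dehydrogenase and cyclohydrolase of the pathway. It was listed at 0.0461 and 0.0826 TPM in the UCK2 shRNA libraries and 0.0356 and 0.151 TPM in the controls, the lowest mean of the family. ALDH1L1 (chromosome 3, 126103562 to 126197994, minus strand), the cytosolic formyl-tetrahydrofolate dehydrogenase, had 0.0964 and 0.429 TPM in the UCK2 shRNA libraries and 0.0864 and 0.123 TPM in the controls. At these levels the groups overlapped for both, and neither was tested.

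The MTHFD2 value stands out against the rest of its branch, at 0.00929 and 0.00987 of the MTHFD2L level in UCK2 shRNA replicates 1 and 2 and 0.00680 and 0.0390 of it in control replicates 1 and 2. GENCODE v29 names 7 pseudogenes of MTHFD2. In its longest protein-coding transcript 31% of the 75-base words also occur, letter for letter on either strand, in transcripts of other genes. Those genes are AC006030.1, SLC4A5 and, of the named pseudogenes, only MTHFD2P7. SLC4A5 overlaps MTHFD2 on the opposite strand, so some shared words may come from the same stretch of the genome. The protein-coding RP11-287D1.3 also overlaps MTHFD2 on the opposite strand. The means of SLC4A5 and RP11-287D1.3 were 0.747 and 0.0354 TPM. For the other members the share lay between 0% and 9.74%. Of the 246 protein-coding genes with at least 5 pseudogenes named after them, 6.91% averaged under 1 TPM, against 38.3% of all protein-coding genes. Their median was 188 TPM, against 4.32 TPM over all protein-coding genes. The sets thus differ in level, and these shares cannot show whether reads of such genes were lost. The sources used here do not say how the authors treated reads that match several places, or whether counting used strand. The part of either in the MTHFD2 value was not tested.

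**Figure D1:**
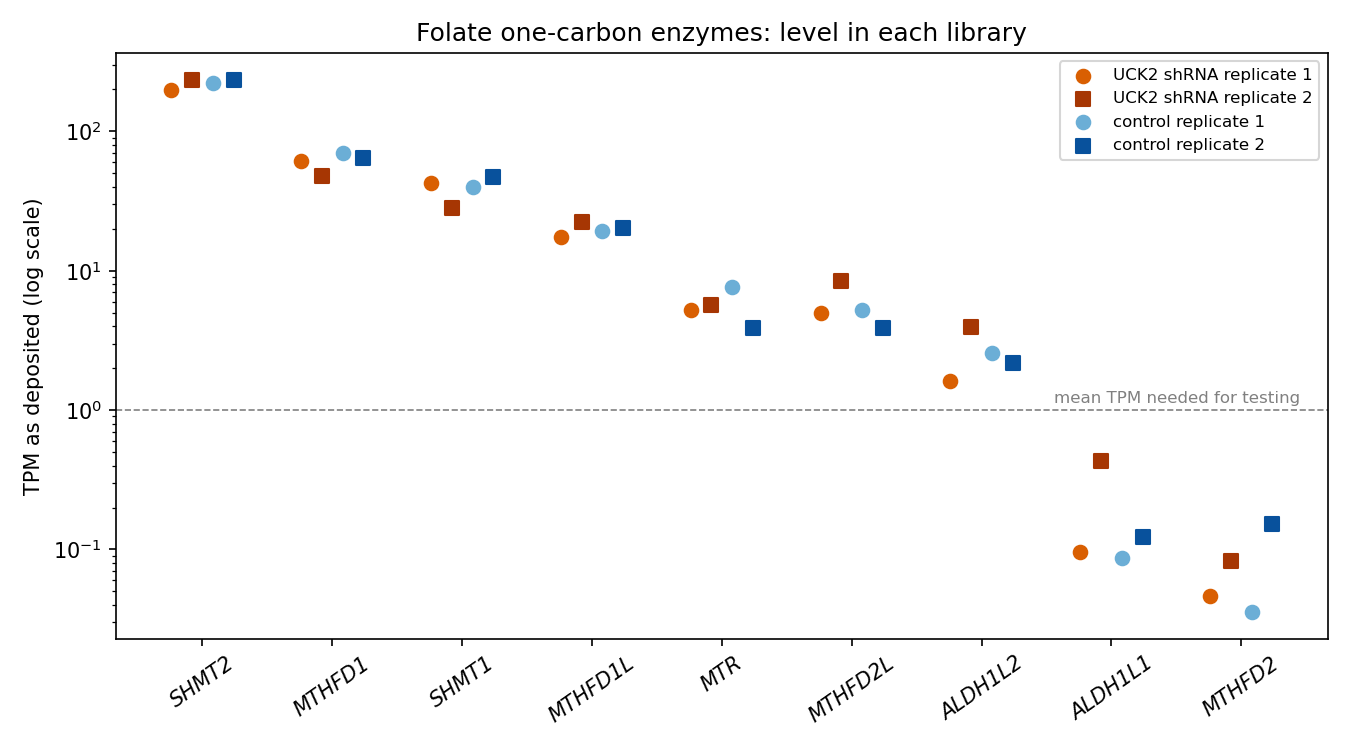
TPM as deposited, on a log scale, of each of the 9 folate one-carbon enzymes in the 4 libraries, ordered by mean level; orange marks UCK2 shRNA and blue marks control libraries. SHMT2 stands at 198 to 235 TPM, while ALDH1L1 and MTHFD2 lie under the mean of 1 TPM that a gene needed to be tested.

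The order of levels was clear at the top and less so further down. SHMT2, MTHFD1, SHMT1 and MTHFD1L followed each other with no overlap between the ranges of neighbours, the closest being MTHFD1 at its lowest, 47.8 TPM, and SHMT1 at its highest, 47.1 TPM. MTR and MTHFD2L, with means of 5.61 TPM each, did not differ beyond their spread, and the ranges of MTHFD2L and ALDH1L2 overlapped although MTHFD2L was above ALDH1L2 in all 4 libraries. ALDH1L1 was above MTHFD2 in 3 of the 4 libraries, and their ranges overlapped.

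No member passed the test between the groups. limma on log2(TPM + 1) across 14038 genes, each averaging at least 1 TPM, called 0 genes at an adjusted p under 0.05, which is 0% of genes, and so 0 of the 7 members tested. At an unadjusted p under 0.05 it took 15.4% of all genes, and 0 of the 7. In bulk RNA, fewer cells expressing a gene and less RNA per cell cannot be told apart. After scaling 9 genes were called, 0.0641% of genes, and again 0 of the 7.

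Every 95% interval of the log2 difference, UCK2 shRNA minus control, included 0. MTHFD2L had the highest, 0.44 ± 0.32 (SE; 95% interval -0.32 to 1.20; limma adjusted p = 0.534), and 0.11 without UCK2 shRNA replicate 2. ALDH1L2 had 0.10 ± 0.38 and MTHFD1L 0.00078 ± 0.21, and SHMT2 had -0.09 ± 0.16 (95% interval -0.46 to 0.28, limma adjusted p = 0.827). The cytosolic MTHFD1 and SHMT1 had -0.31 ± 0.19 (adjusted p = 0.442) and -0.32 ± 0.24 (adjusted p = 0.541), and MTR had -0.0036 ± 0.34. The median of the 7 was -0.0036, beside -0.22 over all genes tested and -0.30 over those averaging at least 10 TPM.

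Scaling raised the difference of each member tested, as it raised the median of all genes. The scaled differences were 0.64 ± 0.28 for MTHFD2L (95% interval -0.0032 to 1.29), 0.27 for ALDH1L2, 0.23 for MTHFD1L, 0.15 for SHMT2, 0.20 for MTR, -0.08 for MTHFD1 and -0.08 for SHMT1, with limma adjusted p between 0.918 and 0.988. The directions of SHMT2 and MTR therefore turned with scaling. The median of the 7 was 0.20 after scaling, beside -0.0062 over all genes. MTHFD2L had scaled levels of 5.40 and 9.02 in UCK2 shRNA replicates 1 and 2, above 4.41 and 3.86 in the controls, a separation in that direction that 16% of all genes showed. For the other 6 members tested the scaled groups overlapped, so none was lower in both UCK2 shRNA libraries, where 15.5% of all genes were.

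**Figure D2:**
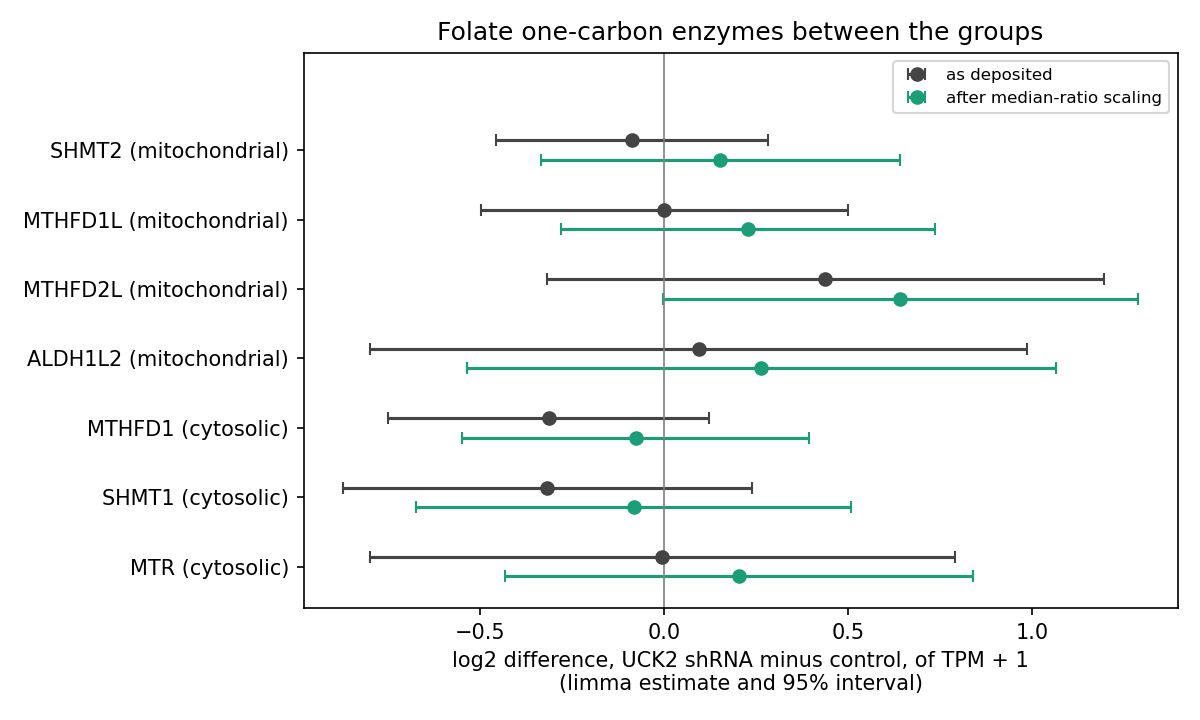
Log2 difference of TPM + 1, UCK2 shRNA minus control, with its 95% interval from limma for the 7 members tested, as deposited (grey) and after median-ratio scaling (green). All intervals include 0, and that of MTHFD2L after scaling, from -0.0032 to 1.29, comes closest to leaving it out.

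Ratios between members of one library do not depend on the library total, and these set a single library apart. The ratio of SHMT2 to SHMT1, the mitochondrial over the cytosolic form of one activity, was 4.66 and 8.30 in UCK2 shRNA replicates 1 and 2, and 5.57 and 4.99 in control replicates 1 and 2. The ratio of MTHFD1L to MTHFD1 was 0.287 and 0.466 in the UCK2 shRNA libraries, and 0.273 and 0.315 in the controls. UCK2 shRNA replicate 2 was the highest in both, while UCK2 shRNA replicate 1 lay below both controls in the first ratio and between them in the second.

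Summed over the family, the mitochondrial members made up 67.1% and 76.6% of the TPM of the 9 in the UCK2 shRNA libraries, and 67.9% and 69.4% in the controls. Without SHMT2 their share of the other 8 was 18.2% and 29.7% in the UCK2 shRNA libraries, and 18.6% and 18.7% in the controls. UCK2 shRNA replicate 2 stood above the other 3 libraries, which lay close together. These shares take the MTHFD2 value as listed. They would be too low if reads of that gene were lost, which was not tested. The mean mitochondrial share of the 9 was 71.9% ± 6.69 in UCK2 shRNA and 68.6% ± 0.997 in control libraries (SD, n = 2 each), a difference of 3.23 percentage points that fell to -1.50 without UCK2 shRNA replicate 2. The difference in the SHMT2 to SHMT1 ratio was 1.20 with all libraries and -0.622 without that one. With 2 libraries against 2 an exact permutation test cannot give a p below 0.333, and none was run.

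**Figure D3:**
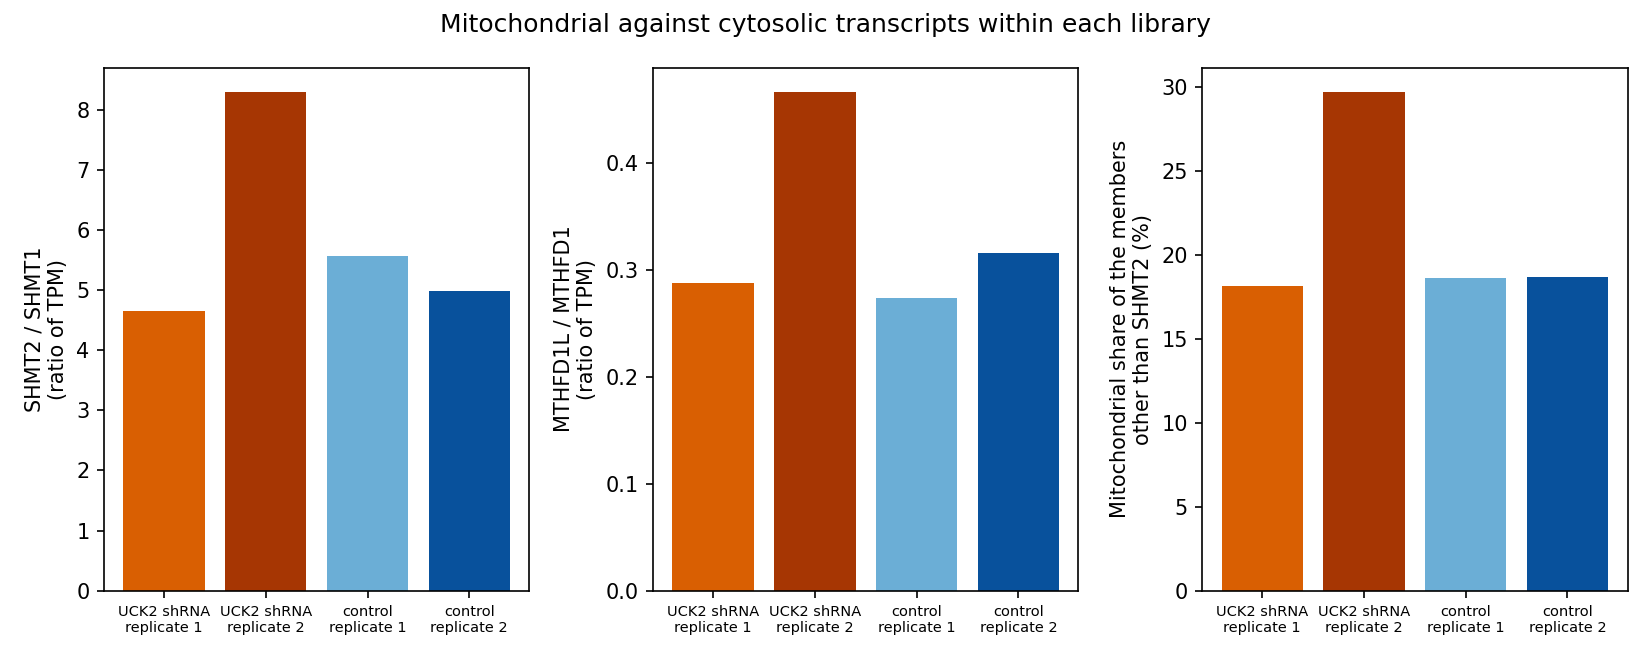
The TPM ratios SHMT2 to SHMT1 and MTHFD1L to MTHFD1, and the mitochondrial share of the summed TPM of the 8 members other than SHMT2, as 1 bar per library, with UCK2 shRNA in orange and control in blue. UCK2 shRNA replicate 2 is the highest bar in each panel, at 8.30, 0.466 and 29.7%, and the other 3 libraries lie close together.

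Library by library, the mitochondrial members tested were high and MTHFD1 and SHMT1 low in UCK2 shRNA replicate 2, while MTR was neither. Below the filter, the mitochondrial MTHFD2 was highest in control replicate 2, at 0.151 TPM. The cytosolic ALDH1L1 was highest in UCK2 shRNA replicate 2, at 0.429 TPM. After scaling, all 4 mitochondrial members tested were highest in that library, as were 30.0% of all genes tested, and 2 of 3 cytosolic ones, MTHFD1 and SHMT1, were lowest there, as were 30.9% of all genes. As deposited 3 of the 4 were highest there, SHMT2 being the exception, against 14.6% of all genes, and the same 2 of 3 cytosolic ones were lowest, against 38.9% of all genes. Among genes averaging at least 10 TPM, as MTHFD1, SHMT1, SHMT2 and MTHFD1L do, 41.9% were lowest there after scaling and 20.7% highest. The share highest there was therefore above 30.0% among tested genes averaging less, as MTHFD2L and ALDH1L2 do. These counts describe a library singled out after its values were seen and have no test. That library also had the lowest UCK2 level, 67.8 TPM, and the largest estimated share of TPM outside the table, 35.7%. The part of either in these values was not tested.

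Of the 4 genes on the list of serine supply, PSAT1 and PHGDH were highest in UCK2 shRNA replicate 2 by a wide margin, PSPH was highest there by little and SFXN1 was lowest there. PSAT1, phosphoserine aminotransferase, had 72.9 and 137 TPM in UCK2 shRNA replicates 1 and 2, and 78.8 and 70.5 TPM in the controls. PHGDH, the first enzyme of serine synthesis, named here after its values were seen, had 35.6 and 76.1 TPM in the UCK2 shRNA libraries, and 37.3 and 40.4 TPM in the controls. PSPH, which completes the synthesis, had 45.0 and 50.5 TPM in the UCK2 shRNA libraries and 49.3 and 45.2 TPM in the controls. As deposited, UCK2 shRNA replicate 1 lay between the controls for PSAT1 and below both for PHGDH. After scaling PSAT1 had 79.4 and 148 in the UCK2 shRNA libraries, both above the 66.5 and 70.3 of the controls, and PSPH was likewise higher in both, as were 16% of all genes. Scaled PHGDH had 38.8 and 82.0 in the UCK2 shRNA libraries and 31.5 and 40.3 in the controls, which overlap.

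Neither PSAT1 nor PHGDH passed, with log2 differences of 0.42 ± 0.29 and 0.41 ± 0.33 (SE; limma adjusted p = 0.501 and 0.571), or 0.66 and 0.65 after scaling (limma adjusted p = 0.902 and 0.949). Without UCK2 shRNA replicate 2 they were -0.03 and -0.12 as deposited, and 0.21 and 0.12 after scaling. SFXN1, the carrier that brings serine into mitochondria, had 66.7 and 52.6 TPM in the UCK2 shRNA libraries and 90.9 and 84.3 TPM in the controls (log2 difference -0.56 ± 0.18, adjusted p = 0.294; scaled -0.32). Its groups did not overlap before or after scaling, with UCK2 shRNA lower, as for 44.4% of all genes before scaling and 15.5% after. Of the 4 genes of the serine list 0 passed, and their median difference was 0.21, beside -0.22 over all genes, or 0.45 after scaling, beside -0.0062 over all genes.

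CTH and ASNS, also named after their values were seen, were also highest in UCK2 shRNA replicate 2. CTH, the cystathionine gamma-lyase that makes cysteine, had 4.87 and 9.84 TPM in the UCK2 shRNA libraries and 4.99 and 4.43 TPM in the controls. ASNS, asparagine synthetase, had 44.0 and 96.6 TPM in the UCK2 shRNA libraries and 50.1 and 37.1 TPM in the controls. Their log2 differences were 0.48 ± 0.35 and 0.59 ± 0.36 (SE, limma adjusted p = 0.522 and 0.449), or 0.69 and 0.82 after scaling (limma adjusted p = 0.918 and 0.884). As deposited the groups overlapped. Scaled CTH stood at 5.31 and 10.6 in UCK2 shRNA replicates 1 and 2, against 4.21 and 4.42 in control replicates 1 and 2. Scaled ASNS stood at 47.9 and 104 in the same UCK2 shRNA libraries, against control values of 42.3 and 36.9. Both genes were thus higher in both UCK2 shRNA libraries after scaling, a separation in that direction that 16% of all genes showed. Without UCK2 shRNA replicate 2 the differences of CTH and ASNS were 0.0420 and 0.0293 as deposited, and 0.25 and 0.27 after scaling.

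ASNS belongs to a list of 11 measured genes linked to ATF4, the transcription factor of the amino acid response, of which 0 passed. After scaling 8 of the 11 were highest in UCK2 shRNA replicate 2, against 30.0% of all genes tested. As deposited fewer of the 11 were, against 14.6% of all genes, with TRIB3 highest in control replicate 2. That UCK2 shRNA library was singled out after its values were seen. The median difference of the list was -0.04 as deposited, with 6 of 11 below 0, beside -0.22 over all genes. After scaling it was 0.19, beside -0.0062 over all genes. SLC3A2, a subunit of amino acid transporters, had 261 and 300 TPM in the UCK2 shRNA libraries and 312 and 333 TPM in the controls. It was lower in both UCK2 shRNA libraries as deposited, as were 44.4% of all genes, and overlapped after scaling. TRIB3, a pseudokinase that restrains ATF4, had 128 TPM in UCK2 shRNA replicate 2, between the 118 and 134 TPM of the controls, and less in UCK2 shRNA replicate 1, so the groups overlapped. DDIT3, the stress factor CHOP, had 86.7 and 139 TPM in the UCK2 shRNA libraries and 115 and 97.2 TPM in the controls, with UCK2 shRNA replicate 2 the highest.

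**Figure D4:**
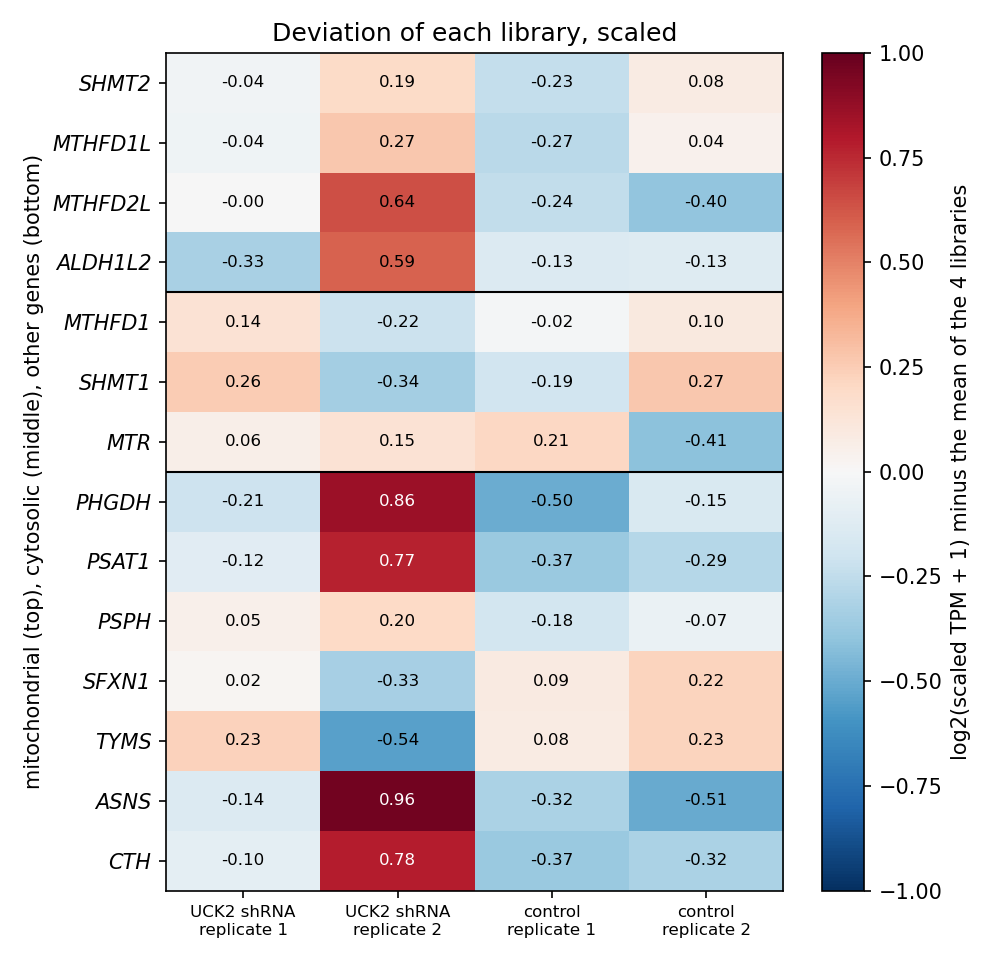
Deviation of log2(scaled TPM + 1) from the mean of the 4 libraries for the mitochondrial members tested (top), the cytosolic members tested (middle) and 7 other genes (bottom), with the value printed in each cell. In the column of UCK2 shRNA replicate 2 the mitochondrial members, PHGDH (0.86), PSAT1 (0.77), PSPH (0.20), ASNS (0.96) and CTH (0.78) are above 0. The cytosolic MTR (0.15) is above 0 too, and MTHFD1 (-0.22), SHMT1 (-0.34), SFXN1 (-0.33) and TYMS (-0.54) are below it. PHGDH, ASNS and CTH were named after their values were seen.

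No gene of folate reduction and use passed the test. All 8 measured genes of folate reduction and use had a log2 difference below 0, as did 74.7% of all genes tested, and 5 of the 8 did after scaling, where 50.8% of all genes did. TYMS, thymidylate synthase, which turns methylene-tetrahydrofolate into dihydrofolate, had 101 and 59.6 TPM in the UCK2 shRNA libraries and 118 and 110.2 TPM in the controls (log2 difference -0.55 ± 0.25 SE, limma adjusted p = 0.348; scaled -0.31). UCK2 shRNA replicate 2 was again the lowest. ATIC, which uses formyl-tetrahydrofolate in the last steps of purine synthesis, had 86.4 and 71.3 TPM in the UCK2 shRNA libraries and 96.0 and 109 TPM in the controls. Both genes were lower in both UCK2 shRNA libraries as deposited, as were 44.4% of all genes, and both overlapped after scaling.

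MTHFS, which returns formyl-tetrahydrofolate stores to use, had 45.2 and 39.8 TPM in the UCK2 shRNA libraries and 70.0 and 64.4 TPM in the controls. Its log2 difference of -0.65 ± 0.17 was the lowest among the pathway genes (SE; limma adjusted p = 0.294; scaled -0.42, adjusted p = 0.920). The MTHFS groups did not overlap on either scale, with UCK2 shRNA lower. Such a separation was found for 44.4% of all genes as deposited and 15.5% after scaling.

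Folate uptake and storage had 0 of 4 tested genes called and a median difference of -0.31, or -0.09 after scaling. FPGS, which adds the glutamate tail that keeps folate in the cell, had 78.6 and 77.6 TPM in the UCK2 shRNA libraries and 103 and 108 TPM in the controls (log2 difference -0.43 ± 0.15 SE, limma adjusted p = 0.294; scaled -0.20). GGH, which removes that tail, had 38.8 and 39.7 TPM in the UCK2 shRNA libraries and 63.7 and 36.1 TPM in the controls. SLC25A32, the mitochondrial folate carrier, had 22.2 and 25.7 TPM in the UCK2 shRNA libraries and 34.7 and 26.7 TPM in the controls. As deposited FPGS and SLC25A32 were lower in both UCK2 shRNA libraries, as were 44.4% of all genes, and GGH overlapped. After scaling FPGS was still lower in both, as were 15.5% of all genes, and SLC25A32 overlapped.

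The glycine cleavage system, the other mitochondrial source of methylene-tetrahydrofolate, had 0 of 3 tested genes called. GLDC, its decarboxylase, averaged under 1 TPM, with 0.323 and 0.122 TPM in the UCK2 shRNA libraries and 0.235 and 1.02 TPM in the controls, and was named after its values were seen. AMT, the aminomethyltransferase, had 1.61 and 3.30 TPM in the UCK2 shRNA libraries and 3.91 and 3.41 TPM in the controls. GCSH, the carrier protein, had 45.5 and 43.1 TPM in the UCK2 shRNA libraries and 67.8 and 50.5 TPM in the controls (log2 difference -0.39 ± 0.20 SE, limma adjusted p = 0.375; scaled -0.16). DLD, a dehydrogenase shared with other complexes, had 128 and 149 TPM in the UCK2 shRNA libraries and 222 and 88.8 TPM in the controls, so that the controls stood on either side. As deposited AMT and GCSH were lower in both UCK2 shRNA libraries, as were 44.4% of all genes. After scaling GCSH was still lower in both, as were 15.5% of all genes, and AMT overlapped.

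In the methionine cycle, which MTR feeds, 0 of 8 tested genes were called and the median difference was -0.24, or -0.01 after scaling. MAT2A, which makes S-adenosylmethionine, had 161 and 181 TPM in the UCK2 shRNA libraries and 232 and 177 TPM in the controls. AHCY, which clears S-adenosylhomocysteine, had 118 and 87.0 TPM in the UCK2 shRNA libraries and 139 and 161 TPM in the controls (log2 difference -0.56 ± 0.19 SE, limma adjusted p = 0.294; scaled -0.32). MMADHC, a vitamin B12 trafficking protein, had 78.3 and 88.6 TPM in the UCK2 shRNA libraries and 112 and 86.8 TPM in the controls. Only AHCY of these 3 was lower in both UCK2 shRNA libraries, as were 44.4% of all genes, and it overlapped after scaling.

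Likeness of pattern was measured as the Euclidean distance between the 4 deviations of log2(TPM + 1) from each gene's mean, over 7311 protein-coding genes averaging at least 10 TPM. Nearest to SHMT2 were YARS (distance 0.0309), TPT1 (0.0486) and EMP1 (0.0546), and 33 genes lay within 0.1. Nearest to MTHFD1 were HIP1 (0.0261), RAC1 (0.0306) and ADIPOR1 (0.0333), with 119 genes within 0.1. For MTHFD2, whose values near 0 vary little on this scale, they were SPATA20 (0.0361), C11orf52 (0.0378) and PANK4 (0.0611). The nearness is over 4 libraries and is given as a description.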

How the data were processed

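RNA of 2 UCK2 shRNA and 2 control shRNA libraries was measured by sequencing after a TruSeq RNA preparation, per the labels. The table holds TPM as deposited by the authors, and hg38, HTSeq, edgeR, DESeq and TopHat2 2.0.14 appear, with no role, in the submitters' processing notes. The sources used here do not state strand use in counting, and TPM keeps no depth, so no counting interval is given. Libraries were grouped by title, and the labels do not say whether cultures were separate. A p-value therefore reflects the spread of these libraries alone, which may be technical.

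Genes averaging at least 1 TPM were kept (14038). Groups were compared on log2(TPM + 1), which understates changes of low genes, with limma 3.58.1 in R 4.3.3 (lmFit, eBayes with trend), two-sided. The p-values were adjusted by Benjamini-Hochberg across the 14038 genes, with 0.05 as threshold. The fit was run on simulated data with independent noise and no scale difference between libraries. That run cannot show how it performs on libraries that differ in scale, as these do. Median-ratio factors were 0.918 and 0.928 for UCK2 shRNA replicates 1 and 2, and 1.19 and 1.00 for the controls. Member coordinates are those of the file and equal GENCODE v29 for all 9. Promoters are from RefSeq.

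The members and lists were chosen with earlier results of these data known. Named genes are the 9 members, the 3 most abundant genes of each pathway list, the 3 nearest in pattern to SHMT2, MTHFD2 and MTHFD1, and those said to be named after their values were seen. SLC19A1, GART, FTCD, CBS and ATF4 were not analysed here, and DHFR2 was read under its symbol DHFRL1. Alternatives changed the scaling, pseudocount, filter, variance model, replicate block and libraries used. Leaving out a library leaves a lone one in its group, which is assumed to vary like the others. Figures were drawn with matplotlib 3.10.9.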

Additional observations from a re-analysis of the deposited data

How the results depend on the processing

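No member was called under any alternative run, and 0 pathway genes were called except with the crossed replicate block. Over all genes limma called 0 as deposited (2156 at an unadjusted p under 0.05), 9 with median-ratio scaling and 8 with quantile normalization. Leaving out 1 library in turn gave between 0 and 350 genes, 350 without control replicate 1 and 53 without control replicate 2, or 23 and 18 with scaling. Deviations of same-numbered libraries correlated at -0.214 across genes, the labels name no batch or day behind the numbers, and they were not taken as pairs. With the replicate block 39 genes were called, or 121 with scaling too. The crossed pairing, chosen after seeing the data, called 727 genes and 2 pathway genes, MTHFS and AHCY.

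The log2 difference of SHMT2 turned to 0.15 with median-ratio scaling, with or without the replicate block, 0.33 with quantile normalization and 0.26 when rescaled by the sum of all but the 50 most abundant genes. MTR turned to 0.20, 0.0793 and 0.29 in these, and to 0.0072 with a pseudocount of 0.1. MTHFD1 turned to 0.0309 with quantile normalization and 0.0289 with that rescaling, and SHMT1 to 0.0225 with that rescaling. The cause was not tested.

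Leaving out each library in turn gave, as deposited, -0.21 to 0.0334 for SHMT2, 0.11 to 0.77 for MTHFD2L, -0.48 to -0.14 for MTHFD1, -0.60 to -0.0283 for SHMT1, -0.16 to 0.17 for MTHFD1L, -0.42 to 0.41 for MTR, -0.36 to 0.55 for ALDH1L2, -0.0323 to 0.87 for PSAT1 and -0.12 to 0.95 for PHGDH. With scaling the ranges were -0.0048 to 0.31 for SHMT2, 0.32 to 0.97 for MTHFD2L, 0.0717 to 0.39 for MTHFD1L, -0.26 to 0.10 for MTHFD1, -0.38 to 0.21 for SHMT1, -0.11 to 0.52 for MTR, -0.19 to 0.73 for ALDH1L2 and -0.69 to 0.0743 for TYMS. Within them SHMT2 stood at 0.27 without UCK2 shRNA replicate 1 and 0.0408 without UCK2 shRNA replicate 2, and MTR at 0.25 and 0.16.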
